A study of Mus musculus with 52 samples.

Results

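The 4 genes described here, Gatsl3, Lrfn1, Lypd6b and B930041F14Rik, were picked because their RNA was lower than in controls in each of the 3 ciliated mutant clones of a mouse kidney cell line. They are 4 of the 24421 gene symbols in the count files. They were selected on their log2 fold changes, which had to be -1 or lower in each of those clones, and on the Benjamini-Hochberg adjusted p of edgeR's quasi-likelihood test, which had to be under 0.05. The ciliated values below are therefore a description and carry no test. Tests are given for the non-ciliated libraries, which the choice did not use.

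The edited genes, Wdr34 and Wdr60, encode the intermediate chains of dynein-2, the motor that carries intraflagellar transport cargo from the tip of the primary cilium back to the cell body. The 4 low genes are not known parts of that motor. Gatsl3 is the older symbol of Castor1, a cytosolic arginine sensor that binds the GATOR2 complex and holds back the growth kinase mTORC1 when arginine is scarce. Lrfn1, also called SALM2, is a leucine-rich repeat adhesion protein of the synapse that binds postsynaptic scaffold proteins. Lypd6b is a lipid-anchored surface protein of the Ly6/uPAR family that modulates nicotinic acetylcholine receptors. B930041F14Rik, named Fndc10 in RefSeq, is predicted to be a membrane protein with a fibronectin type III domain, and its function is little described.

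RNA was sequenced from 13 clones of the immortalized mouse inner medullary collecting duct line IMCD3 (the Cilia-APEX derivative), with 4 libraries per clone and 52 libraries in all. The ciliated set held 3 homozygous mutant clones, which were Wdr60 p.Ala911Val and the Wdr34 clones labeled 1 and 3, and 4 controls named D8, H12, A4 and G7. The non-ciliated set held 2 homozygous mutant clones, of Wdr34 and of Wdr60 (p.Ala911Val), and 4 controls named AB, 1, 2 and 3. The study's text gives the Wdr34 alleles as p.Arg183Trp and p.Gly394Ser and leaves the latter out of the non-ciliated set, whereas the labels do not say which allele the Wdr34 clones labeled 1 and 3 carry. It also names unintended heterozygous edits close to the intended ones, a missense change beside p.Gly394Ser in Wdr34 and a synonymous change in the Wdr60 clone. By the study's methods, clones were grown from single sorted cells after transfection with the cytosine base editor BE4-Gam, and controls received the guide vector without a target sequence. Control AB has the prefix AB in its title, where the other non-ciliated clones have BE. The labels do not say what this means or whether AB was made in the same way. Each line is 1 clone, so genotype and clone cannot be told apart within a single mutant. Ciliated cells were starved of serum by the study's methods, although the labels give the same medium for all samples, and the non-ciliated set was sequenced earlier, so cilia, serum and sequencing time cannot be told apart. The study's text reads as if the same mutant clones were sequenced in both states, and the labels do not tie clones across states. The non-ciliated libraries may therefore measure clones that the choice already used. The 4 libraries of a clone are technical replicates, so adjusted p-values over libraries measure the spread between libraries and not between separate edits.

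The guides for 2 of the 3 edited alleles are printed because they name the bases that the mutants were made to change, and the guide for Wdr34 p.Gly394Ser is not shown. Each is given 5′ to 3′ with the PAM and the cytosine that the study marks as the target, at position 5, in capitals. The marked base of the Wdr60 guide fell in codon 911 of the reference transcript, while the Wdr34 guide had no match in its transcript and was not placed on a codon. The first targets Wdr60 on chromosome 12 (GRCm38, chr12:116206261-116263046, minus strand) and the second Wdr34 on chromosome 2 (chr2:30031551-30048879, minus strand).
Wdr60 p.Ala911Val: cctgCagtgttcctggtccAGG
Wdr34 p.Arg183Trp: tggtCggtgagtgagagctTGG

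Total counts ranged from 14816218 to 28084979 per library, so that 1 count was worth 0.0356 to 0.0675 CPM, a count scaled to the size of its library. The members were counted in small numbers throughout, and 1 read more or less moves a mutant value visibly. Wdr34 RNA ranged from 21.7 to 49.5 CPM and Wdr60 RNA from 20.4 to 30.8 CPM over the clone means. The lowest Wdr34 mean was that of the ciliated Wdr34 clone labeled 3, below the lowest ciliated control (30.9 CPM). A missense edit leaves no expected level by which to check the labels. Of 16 collecting duct and kidney epithelial markers, 10 or 11 exceeded 1 CPM in each group. Pax2 (80.6 to 309.5 CPM) and Pax8 (150.1 to 419 CPM) were present in every clone, whereas the water channel Aqp2, the defining gene of principal cells, did not exceed 0.0157 CPM in any clone mean. Other markers differed widely between clones, as Epcam ranged from 2.86 to 836.5 CPM, Cdh1 from 4.22 to 648.7, Krt7 from 3.65 to 939 and Krt8 from 26.3 to 950.2 over the clone means, and so did the mesenchymal Vim (3.48 to 658 CPM) and the proximal tubule gene Lrp2 (4.61 to 446.9 CPM). The summed epithelial list ranged from 1476 to 3769 CPM in ciliated mutants and from 1073 to 4894 in ciliated controls, and from 3290 to 3499 and 924 to 4251 without cilia, so mutant clones lay within the range of the controls. The part of these differences between clones in the results was not tested. Since Lrfn1 is best known from neurons, the neuron list was read too. Its summed level ranged from 6.97 to 51.3 CPM in ciliated mutants, 1.93 to 23.3 in ciliated controls, 12.01 to 55.6 in non-ciliated mutants and 11.7 to 92.3 in non-ciliated controls. Of its 7 genes, the defining Nefl was at 0 in every library and Snap25 did not exceed 0.00855 CPM in any clone mean, so Tubb3 and Map2 carried that sum. In bulk RNA, fewer cells with a transcript and less of it per cell cannot be told apart.

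Gatsl3 lies on chromosome 11 (GRCm38, chr11:4218166-4222409, plus strand). In ciliated cells, the 4 libraries of the Wdr34 clone labeled 1 held 0, 2, 0 and 1 counts of Gatsl3, and those of the Wdr34 clone labeled 3 held 0, 0, 2 and 0. The Wdr60 clone held 5, 3, 7 and 5. These 3 clones averaged 0.0448 ± 0.0590, 0.0271 ± 0.0542 and 0.266 ± 0.0847 CPM (SD of 4 libraries). The 4 controls were close to one another, with 0.656 ± 0.222 CPM in D8, 0.640 ± 0.326 in H12, 0.671 ± 0.287 in A4 and 0.921 ± 0.158 in G7. Of the 12 mutant libraries, 11 lay below the lowest control library. RNA of the arginine sensor was thus nearly absent from both Wdr34 clones and reduced less in the Wdr60 clone, whose libraries did not overlap those of either Wdr34 clone. From summed counts the controls held 16.8 times (95% counting interval 5.66 to 81.9), 27.2 times (7.43 to 226) and 2.73 times (1.72 to 4.55) the level of these clones in that order.

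Without cilia, Gatsl3 gave 6, 1, 8 and 1 counts in the Wdr34 clone and 10, 15, 10 and 12 in the Wdr60 clone. Their means were 0.254 ± 0.234 and 0.710 ± 0.117 CPM. The controls had 1.74 ± 0.366 CPM in AB, 0.747 ± 0.413 in control 1, 1.56 ± 0.254 in control 2 and 1.13 ± 0.256 in control 3. As with cilia, the Wdr34 clone was lowest and its libraries did not overlap those of the Wdr60 clone. Its libraries at 0.381 and 0.520 CPM lay above the lowest of control 1 (0.346 CPM), and the Wdr60 clone overlapped controls 1 and 3. Controls held 5.35 times (3.25 to 9.46) the level of the Wdr34 clone and 1.82 times (1.34 to 2.52) that of the Wdr60 clone. All intervals of this kind cover counting error only.

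Lrfn1 lies on chromosome 7 (chr7:28451893-28468242, plus strand), inside the span that GENCODE gives the oppositely transcribed Samd4b, with no shared exon. In RefSeq, Samd4b ends before Lrfn1. In ciliated cells, Lrfn1 gave 0, 1, 0 and 0 counts in the Wdr34 clone labeled 1, 1, 2, 0 and 1 in the clone labeled 3, and 0, 1, 1 and 0 in the Wdr60 clone. Their means were 0.0156 ± 0.0311, 0.0547 ± 0.0470 and 0.0269 ± 0.0311 CPM. No ciliated mutant library held more than 2 counts of this synaptic adhesion gene. Control means were 0.530 ± 0.189 CPM in D8, 1.49 ± 0.469 in H12 and 0.685 ± 0.305 in A4, but 0.154 ± 0.144 in G7, with 5, 0, 4 and 2 counts. The libraries of the low control G7 overlapped those of all 3 mutant clones and did not overlap those of D8, the next control above it. From summed counts the controls exceeded the 3 mutant clones 49.8 times (8.84 to 1976), 13.5 times (5.18 to 49.9) and 27.0 times (7.38 to 224). Without control H12 these ratios were 30.3, 8.18 and 16.4.

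In non-ciliated cells Lrfn1 gave 1 count over the 8 mutant libraries and 291 counts over the 16 control libraries. The Wdr34 clone held 0, 0, 1 and 0 counts, or 0.0163 ± 0.0325 CPM, and the Wdr60 clone was at 0 in all 4 libraries. Every control library was above every mutant library, the lowest of them at 0.445 CPM. Control AB stood highest with 2.10 ± 0.457 CPM, above 0.789 ± 0.155 in control 2, 0.586 ± 0.102 in control 1 and 0.509 ± 0.0917 in control 3. Controls held 66.3 times (11.8 to 2626) the level of the Wdr34 clone, and the Wdr60 clone was at least 22.0-fold lower than controls, at a floor of 3 counts over its 4 libraries. Without control AB the ratio was 41.6 (7.34 to 1655) and the bound 13.8-fold.

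Lypd6b lies on chromosome 2 (chr2:49787340-49948849, plus strand). Ciliated Lypd6b counts were 0, 2, 0 and 1 in the Wdr34 clone labeled 1, 1, 3, 4 and 6 in the clone labeled 3, and 0, 3, 0 and 2 in the Wdr60 clone. The means were 0.0448 ± 0.0590, 0.180 ± 0.0912 and 0.0656 ± 0.0808 CPM. The controls fell into a high pair, H12 (2.56 ± 0.367 CPM) and A4 (2.36 ± 0.508), and a low pair, D8 (0.607 ± 0.194) and G7 (0.534 ± 0.342), and the libraries of A4 and D8 did not overlap. The lowest control clone still had a mean above that of each mutant clone, although its 4 libraries, with 15, 7, 2 and 20 counts, reached into the range of all 3 mutant clones. Summed counts put the controls at 35.4 times (12.04 to 172), 8.21 times (4.84 to 15.1) and 23.0 times (9.80 to 71.3) the mutant clones.

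Without cilia the pattern of Lypd6b was different in kind, because 3 of 4 controls were also low. Control 1 held 29, 31, 30 and 27 counts, or 1.75 ± 0.252 CPM. AB held 0, 2, 2 and 1 counts (0.0639 ± 0.0482 CPM), control 2 held 4, 0, 3 and 0 (0.0982 ± 0.120 CPM) and control 3 held 5, 1, 5 and 7 (0.236 ± 0.126 CPM). The Wdr34 clone was at 0 in all 4 libraries, and the Wdr60 clone, with 0, 2, 1 and 2 counts and 0.0746 ± 0.0576 CPM, lay above AB. For this nicotinic receptor modulator the non-ciliated mutants therefore did not lie below every control clone. The ratio of pooled controls to the Wdr60 clone was 6.68 (2.80 to 20.9), and the Wdr34 clone was at least 11.2-fold lower than the pooled controls. Both rest on control 1, which held 117 of the 147 control counts. Without it the ratio was 1.78 (0.683 to 5.87) and the bound 2.97-fold.

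B930041F14Rik lies on chromosome 4 (chr4:155694342-155696485, plus strand). With cilia it gave 0, 1, 2 and 3 counts in the Wdr34 clone labeled 1, 1, 3, 3 and 0 in the clone labeled 3, and 0 in all 4 Wdr60 libraries. The corresponding means were 0.0864 ± 0.0712, 0.0981 ± 0.0829 and 0 CPM. Controls had 0.649 ± 0.0527 CPM in D8, 1.14 ± 0.416 in H12, 0.455 ± 0.330 in A4 and 1.23 ± 0.212 in G7. The clones thus separated by mean, and the lowest control library, 0.0568 CPM in A4, was the only one of 16 within the range of the mutants. Controls stood 10.3 times (4.66 to 28.3) and 9.54 times (4.56 to 24.0) above the Wdr34 clones labeled 1 and 3, and the Wdr60 clone was at least 22.3-fold lower than controls.

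Without cilia, the Wdr34 clone gave 0, 0, 0 and 4 counts of B930041F14Rik, so that 1 library carried its whole mean of 0.0626 ± 0.125 CPM, and the Wdr60 clone was again at 0 in all 4 libraries. Controls were lower than in ciliated cells, with 0.535 ± 0.130 CPM in AB, 0.207 ± 0.0566 in control 1, 0.485 ± 0.264 in control 2 and 0.104 ± 0.109 in control 3. Both mutant means lay below every control mean, but the Wdr34 library with 4 counts lay within the range of controls 1, 2 and 3. Control 3 itself held 2, 0, 5 and 1 counts. The control to mutant ratio was 5.58 (2.11 to 20.9) for the Wdr34 clone, and the Wdr60 clone was at least 7.42-fold lower.

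**Figure D1:**
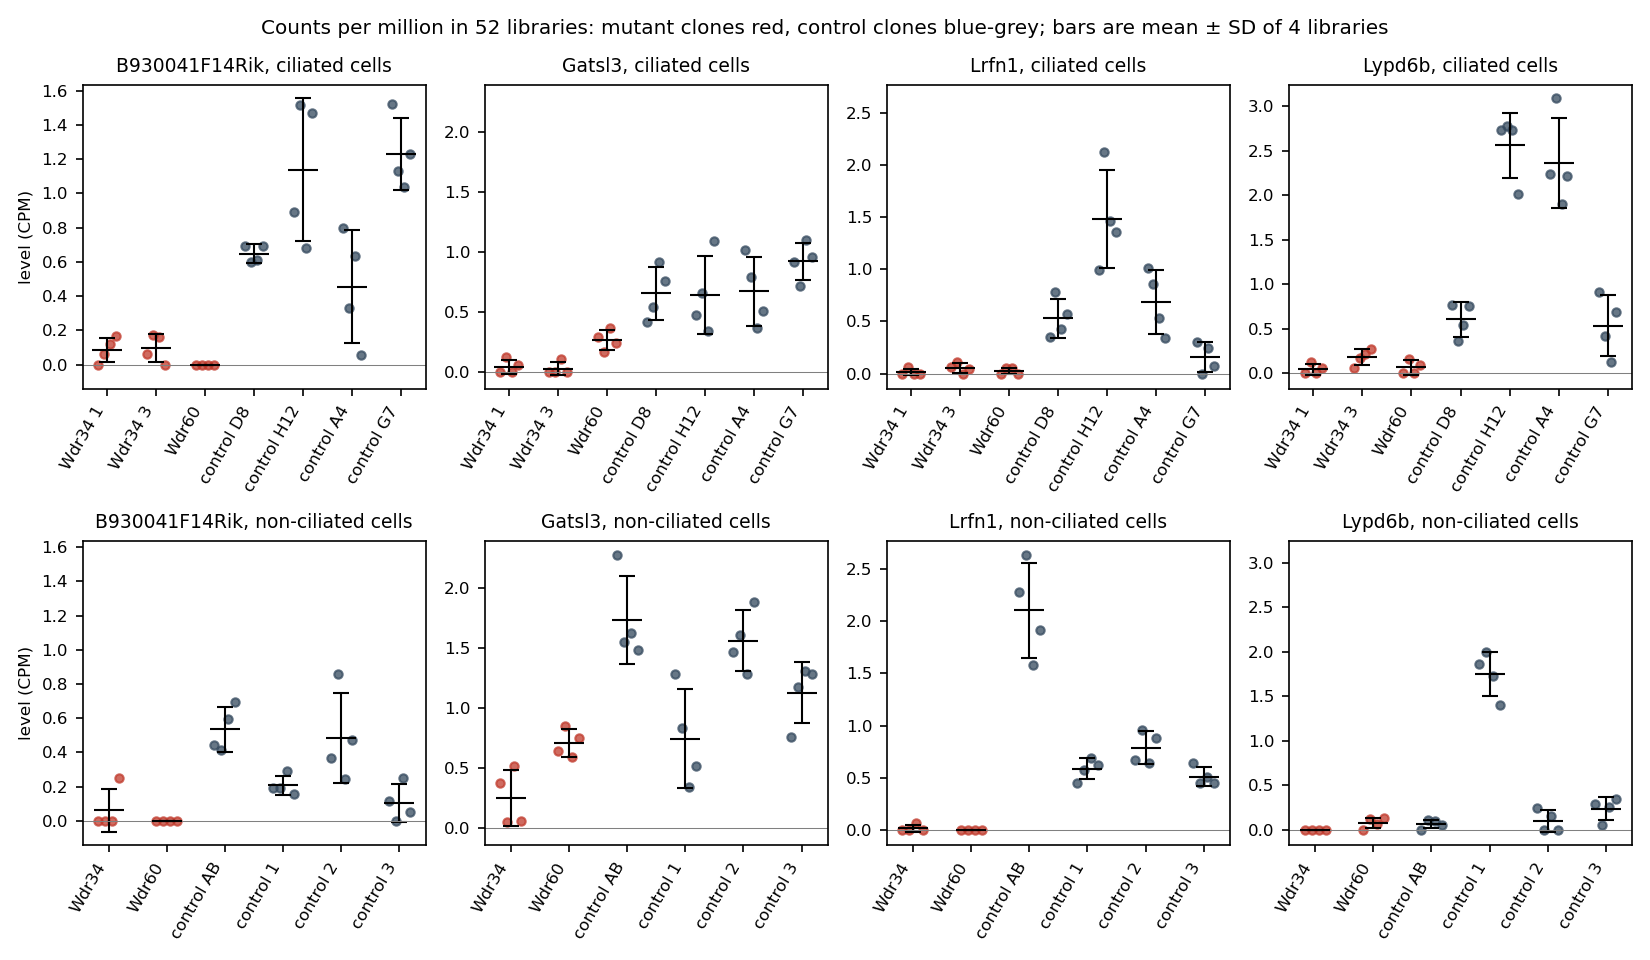
Level of each gene in CPM (linear axis) in every library, by clone, with mutant clones in red, control clones in blue-gray, and bars for the mean ± SD of 4 libraries. Lrfn1 libraries separate fully by genotype in non-ciliated cells, while Lypd6b is high there only in control 1 (1.75 CPM).

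Averaged over clones, the ciliated levels were 0.113 ± 0.133 CPM in mutants (n = 3) and 0.722 ± 0.133 in controls (n = 4) for Gatsl3, and 0.0324 ± 0.0201 and 0.713 ± 0.561 for Lrfn1. They were 0.0969 ± 0.0729 and 1.52 ± 1.10 for Lypd6b, and 0.0615 ± 0.0536 and 0.869 ± 0.376 for B930041F14Rik. In each of the 4 genes all 3 mutant means lay below all 4 control means, a pattern found in 0.778% of the 11950 genes that passed the filter of the pooled comparison, which did not keep Gatsl3 and Lrfn1. The choice of genes favored this pattern on the same libraries without requiring it, so nothing is read from it. Log2 fold changes against the controls, in the order Wdr34 clone labeled 1, Wdr34 clone labeled 3 and Wdr60, were -3.85, -4.45 and -1.42 for Gatsl3 and -5.08, -3.59 and -4.44 for Lrfn1. They were -4.92, -3.03 and -4.39 for Lypd6b and -3.24, -3.12 and -7.01 for B930041F14Rik, where the last value belongs to a clone with 0 counts and depends on the prior count of the fit. Genes called lower made up 0.460%, 2.16% and 1.29% of those tested in the 3 clones, and 0.0324% of 12340 genes, these 4, were called lower in each.

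The choice left near neighbors on both of its limits. The member closest to the limit on size was Gatsl3, by its 1.42 drop in the Wdr60 clone, and the one closest to the limit on adjusted p was Lrfn1, whose largest value by edgeR's quasi-likelihood test was 0.0272. Just outside was Myo5c, an unconventional myosin of secretory epithelia, with log2 fold changes of -4.51, -1.41 and -2.83 and a largest adjusted p of 0.0611 in the same edgeR fit. Elmod1, Zdhhc14, Kctd12 and Bend4 were likewise lower by at least 1 in each clone and missed on the adjusted p. Rps6ka2 missed on size, with -0.59, -0.90 and -0.60, as did Dmxl2 and Praf2. The 4 genes are therefore the ones that crossed both limits rather than a group set apart from the next genes.

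In the non-ciliated libraries, 8 from mutants were compared with 16 from controls, which asks whether the mutants without cilia differ in the same direction. edgeR's default filter kept Gatsl3 and Lrfn1 for this comparison and removed B930041F14Rik and Lypd6b, which were tested in a fit of all genes with at least 10 counts in total. Over the 8 mutant libraries Gatsl3 held 63 counts, but Lrfn1 held 1, B930041F14Rik 4 and Lypd6b 5. The last 3 therefore passed a filter only through the controls, where they are high, so how many of the 4 were called is no support for a difference. With the default filter Gatsl3 and Lrfn1 were called lower, beside 2.57% of 12012 genes, and with the wider one B930041F14Rik and Lypd6b were, beside 3.05% of 14906 genes. The log2 fold change was -1.42 (SE 0.37, edgeR adjusted p = 0.0117) for Gatsl3 and -6.10 (SE 0.67, edgeR adjusted p = 2.54e-06) for Lrfn1. It was -3.57 (SE 1.05, edgeR adjusted p = 0.0259) for Lypd6b and -3.18 (SE 0.76, edgeR adjusted p = 0.00763) for B930041F14Rik. The call for Lypd6b rested on control 1, and without that clone its log2 fold change was -1.65 (edgeR adjusted p = 0.157). It was also lost without the Wdr34 clone (-2.69), and without the Wdr60 clone, which left 0 mutant counts. The call for Lypd6b was lost too without any 1 replicate number, although the log2 fold change stayed between -3.92 and -3.16. The call for Gatsl3 was lost without the Wdr34 clone (-0.87). It was also lost without replicate number 2, 3 or 4, although the log2 fold changes of -1.39, -1.55 and -1.35 were close to the full value. The call for B930041F14Rik was lost without the Wdr60 clone (-2.32), and without replicate number 2 or 3, at -2.75 and -2.82. Without the Wdr60 clone, Gatsl3 had -2.34. Lrfn1 was called whichever clone or replicate number was left out, but with 1 count over the 8 mutant libraries this is no sign of stability.

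The clones are the units that carry the genotype, and 2 against 4 clones allow 15 splits and no exact p below 0.0667. Lrfn1 reached that smallest value, with 0.00813 ± 0.0115 CPM in mutants and 0.997 ± 0.747 in controls (exact 2-sided permutation test of mean log2(CPM + 0.1), p = 0.0667). The exact permutation p was 0.133 for Gatsl3 (0.482 ± 0.322 against 1.29 ± 0.445 CPM) and 0.133 for B930041F14Rik (0.0313 ± 0.0443 against 0.333 ± 0.210 CPM). For Lypd6b it was 0.4 (0.0373 ± 0.0528 against 0.536 ± 0.811 CPM). Both mutant means lay below all 4 control means for Gatsl3, Lrfn1 and B930041F14Rik and not for Lypd6b, and 6.09% of the 12012 genes kept by the default filter without cilia, B930041F14Rik and Lypd6b not among them, had such means. With the 4 libraries of each clone summed, edgeR called none of the 4 genes, and 0 genes of 13406 in either direction, with 582 genes at an unadjusted p under 0.05. With the clone as a random block in limma's voom fit, Lrfn1 was called (-4.62, adjusted p = 0.0129) and Gatsl3 was not. That fit called 9 of 12012 genes lower and 0 higher, with 862 at an unadjusted p under 0.05. B930041F14Rik and Lypd6b were not in it and were not called in the voom fit with the wider filter. Lrfn1 held 1 count over the mutant libraries and passed the filter only through the controls, so its call is no support for a difference.

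**Figure D2:**
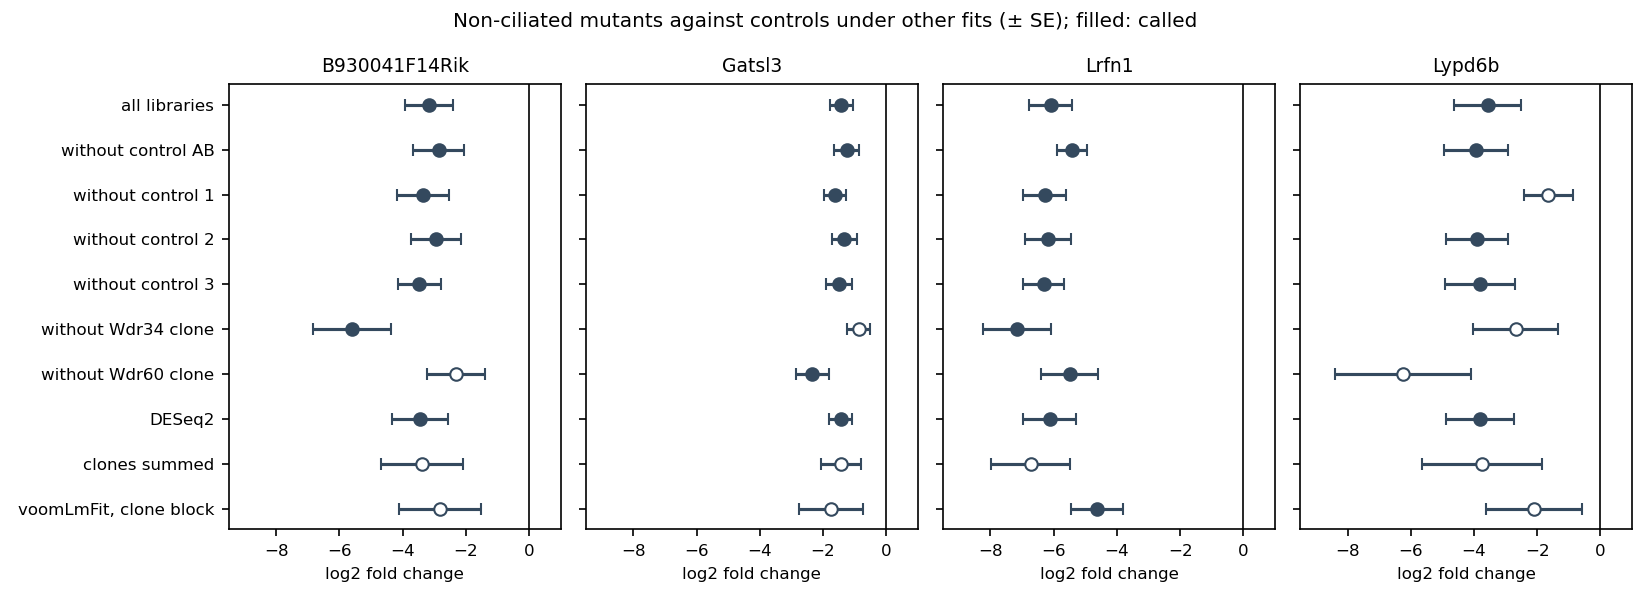
Log2 fold change of non-ciliated mutants against controls for each gene under the main fit and its alternatives, with filled symbols where the gene was called. Every value lies below 0, Lrfn1 is called in all but the fit of summed clones, and Lypd6b changes its call most often. The mutants held 1 count of Lrfn1, so its calls are no sign of stability.

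Each non-ciliated mutant clone was then set against the same 4 controls, so the 2 comparisons share their control libraries. In the Wdr34 clone, Gatsl3 (-2.34, SE 0.53, edgeR adjusted p = 0.00798) and Lrfn1 (-5.50, SE 0.90, edgeR adjusted p = 0.000792) were called lower, beside 1.97% of 12355 genes. Lypd6b, at 0 counts there, had an edgeR adjusted p of 0.0738, and B930041F14Rik had a log2 fold change of -2.32 (edgeR adjusted p = 0.119) in the wider fit, where 1.73% of genes were called lower. In the Wdr60 clone, Lrfn1 was called lower (edgeR adjusted p = 0.000318), beside 2.43% of 12371 genes, and so was B930041F14Rik (edgeR adjusted p = 0.00799), beside 2.09% in the wider fit. Both were at 0 counts in that clone, so their fitted fold changes depend on the prior count and only the bounds above are given here. Gatsl3 had a log2 fold change of -0.87 (SE 0.36, edgeR adjusted p = 0.121) and Lypd6b one of -2.69 (SE 1.35, edgeR adjusted p = 0.195) in the Wdr60 clone. Every value was negative in both non-ciliated clones. Since Lrfn1, Lypd6b and B930041F14Rik passed a filter only through the controls, these calls do not rank the members and are no support for a difference. Each of these single-clone calls was lost with clones summed and with the clone as a block in voom, where Lrfn1 had an adjusted p of 0.732 in the Wdr34 clone and 0.236 in the Wdr60 clone. Whether the 2 clones differ from each other in any of these genes was not tested.

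**Figure D3:**
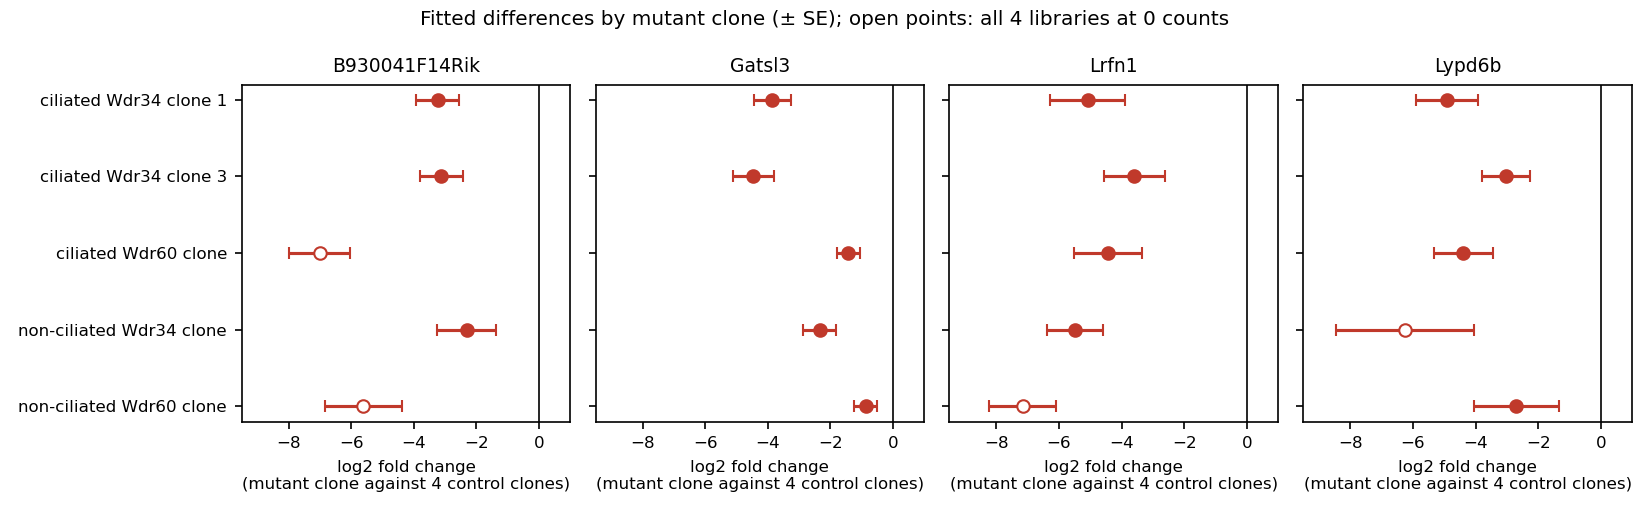
Log2 fold change ± SE of each gene in each mutant clone against the controls of its state, with open symbols where all 4 libraries of the clone were at 0. All values lie below 0, from -0.87 for Gatsl3 in the non-ciliated Wdr60 clone to values set by the prior count in clones at 0.

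Non-ciliated control clones differed among themselves for 3 of these genes. Against the other 3 non-ciliated controls, AB had more Lrfn1 (1.74, SE 0.22, edgeR adjusted p = 2.50e-05), in a comparison that called 6.06% of 12327 genes in either direction. Control 1 had more Lypd6b (3.61, SE 0.55, edgeR adjusted p = 0.000645) and less Gatsl3 (-1.01, SE 0.32, edgeR adjusted p = 0.0462), where 2.18% of genes were called. The Gatsl3 call was lost with the wider filter (edgeR adjusted p = 0.0528). In the edgeR fits none of the 4 genes was called in control 2 (12.9% of genes called) or control 3 (2.60%), where B930041F14Rik came nearest (-1.91, SE 0.63, edgeR adjusted p = 0.0746, in the wider fit) in control 3. The Lypd6b difference between control 1 and the other non-ciliated controls was as large as that between the pooled mutants and controls, while for Lrfn1 the largest such difference in size among them was upward and smaller than the drop in the Wdr34 clone. Ciliated controls, described without a test, also spread in both genes, since G7 had less Lrfn1 (-2.57) and less Lypd6b (-1.76) than the other 3 and H12 had more of both (1.70 and 1.13).

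Between states, the control levels are set side by side without a test, since the ciliated controls were used in the choice. B930041F14Rik was 2.61 times and Lypd6b 2.83 times as high in ciliated as in non-ciliated controls, and Gatsl3 was 0.558 times and Lrfn1 0.716 times as high. The clones were not the same by name. Per kilobase of exon, the levels in ciliated controls were 0.582 ± 0.421 CPM for Lypd6b, 0.459 ± 0.0846 for Gatsl3, 0.406 ± 0.176 for B930041F14Rik and 0.182 ± 0.143 for Lrfn1, and the first 3 did not differ beyond their spread over clones. In non-ciliated controls Gatsl3 led with 0.822 ± 0.283 CPM per kilobase, ahead of Lrfn1 (0.254 ± 0.191), Lypd6b (0.206 ± 0.311) and B930041F14Rik (0.156 ± 0.0981), and the last 3 did not differ beyond their spread over clones. All 4 are faint genes in this line. The Gatsl3 paralogue Gatsl2 had 5.20 ± 1.36 CPM per kilobase in ciliated controls and the Lrfn1 paralogue Lrfn4 had 57.1 ± 16.8.

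The members were compared with each other over clone means of log2(CPM + 0.1), as a description, since clones at or near 0 in several genes set much of any correlation. In ciliated cells (n = 7 clones) Pearson's r between pairs ran from 0.668 for Gatsl3 and Lrfn1 to 0.949 for Lrfn1 and Lypd6b, the pair that shared the low control G7. In non-ciliated cells (n = 6 clones) Lrfn1 and B930041F14Rik had r = 0.921 and Lrfn1 and Gatsl3 r = 0.802. Lypd6b, high in control 1 alone, had r of 0.136, 0.0820 and 0.284 with B930041F14Rik, Gatsl3 and Lrfn1. Over all 13 clones, centered within each state and among 12174 genes, the genes nearest to Lrfn1 included Cisd3 (r = 0.904), Muc1, Myo5c and Panx1. Nearest to Gatsl3 were Mbd5 (r = 0.839), Ap4e1, Odf2, Afap1l2 and Fam76b, and nearest to B930041F14Rik were Hoxb9 (r = 0.860), Dock6, Rab6b, Nsd1 and Hcn2, with Lrfn1 at rank 6. Nearest to Lypd6b were Nptxr (r = 0.766), Srrm1, Thoc2, Bend4 and 0610010F05Rik. No member was among the 5 nearest genes of another.

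The pathway of each member was read from a list of related genes. For Gatsl3 these were 36 genes of amino acid sensing by mTORC1, among them the GATOR1 and GATOR2 complexes, the Sestrins, the Rag GTPases and the Ragulator. Of the 34 tested, edgeR called 0 in either direction in the pooled ciliated comparison (all genes, 0.226% lower and 0.418% higher) and 0 in the pooled non-ciliated one (2.57% lower and 0.491% higher), with 7 and 12 at an unadjusted p under 0.05, as were 19.2% and 30.3% of all genes tested. DESeq2 and limma's voom fit also called 0. The pooled median log2 fold change of the list was -0.02 with cilia and 0.00 without, beside -0.01 and 0.00 over all genes. In single ciliated clones 35 were tested, and the Rag GTPase gene Rragd went in opposite directions. It was called higher in the Wdr34 clone labeled 3 (3.16, edgeR adjusted p = 9.18e-07), where 457 of 12553 genes were. In the Wdr60 clone it was called lower (-3.77, edgeR adjusted p = 0.00270), beside 1.29% of genes. In the single non-ciliated clones 0 of 34 were called. Gatsl2, the closest relative of the arginine sensor, had 41.7 ± 3.47 CPM in ciliated mutants and 39.3 ± 10.3 in controls (0.07, SE 0.12, edgeR adjusted p = 0.780), and 43.7 ± 1.77 and 46.4 ± 8.93 without cilia (-0.09, SE 0.14, edgeR adjusted p = 0.706).

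For Lrfn1 the list held 29 synaptic leucine-rich repeat adhesion genes, their receptors and scaffolds, of which 10 were tested with cilia and 11 without. In the ciliated pool 1 was called lower, Elfn1, a postsynaptic organizer of glutamate receptors, and in the non-ciliated pool 2 were, Elfn1 and Flrt1, a fibronectin and leucine-rich repeat adhesion protein, where 0.226% and 2.57% of all genes tested were called lower. No gene of the list was called higher by edgeR in either pool, and its median was 0.00 with cilia and -0.26 without. With cilia DESeq2 also called Flrt2 higher (2.14), where it called 0.552% of all genes higher. In the ciliated Wdr34 clone labeled 3, edgeR called Ptprd (10.1, adjusted p = 2.73e-14) and Flrt2 (3.52, adjusted p = 0.000127) higher. It called Dlg4 lower there (-1.08, adjusted p = 0.00738). In that clone 457 of 12553 genes were called higher and 2.16% lower. Ptprd was near 0 in ciliated controls (0.00381 ± 0.00761 CPM), and Flrt2 had -2.79 in the clone labeled 1, not called. Elfn1 was at 0.745 ± 0.537 CPM in ciliated mutants and 9.23 ± 12.01 in controls (-3.62, SE 0.78, edgeR adjusted p = 0.00847). It was not called in the ciliated Wdr34 clones labeled 1 and 3 or the Wdr60 clone (edgeR adjusted p = 0.0731, 0.0800 and 0.191). Against the other 3 ciliated controls, control H12 had -5.22 (edgeR adjusted p = 0.00539). Without cilia Elfn1 was at 0.653 ± 0.560 and 15.9 ± 15.3 CPM (-4.60, SE 0.80, edgeR adjusted p = 0.000556). Leaving out control 2 gave -3.82, still called. Elfn1 was called lower in the single non-ciliated Wdr34 (-5.91, edgeR adjusted p = 0.00634) and Wdr60 clones (-3.92, edgeR adjusted p = 0.0224), beside 1.97% and 2.43% of genes. Control AB alone differed from the other 3 non-ciliated controls by -4.24 (edgeR adjusted p = 0.000132). The control clones spanned 0.324 to 26.3 CPM with cilia, and the clone means of mutants and controls overlapped there. The highest control was G7, without which the difference was -2.22 (edgeR adjusted p = 0.0215). The ciliated call was lost without any 1 replicate number (edgeR adjusted p from 0.0574 to 0.0771), although the difference stayed between -3.70 and -3.58. Flrt1 had 1.58 ± 0.653 CPM in non-ciliated mutants and 17.0 ± 19.5 in controls (-3.43, SE 0.59, edgeR adjusted p = 0.000553), and -0.73 (edgeR adjusted p = 0.398) with cilia, where the value was 0.24 without control G7. Without control 2 the non-ciliated difference of Flrt1 was -2.20 and still called. Flrt1 was called lower in both single non-ciliated clones (-3.92 for Wdr34 and -3.06 for Wdr60, edgeR adjusted p = 0.00874 and 0.0224). In ciliated cells it was called lower in the Wdr60 clone (-2.73, edgeR adjusted p = 0.0327), beside 1.29% of genes. It was not called in the Wdr34 clones labeled 1 (-0.90) and 3 (0.16). The pooled calls of both genes were lost with clones summed and with the clone as a block, at -4.62 and -4.10 for Elfn1 and -3.44 and -3.00 for Flrt1 without cilia and at -3.66 and -2.69 for Elfn1 with cilia.

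None of the relatives of Lrfn1 itself was called. Lrfn3 had 26.0 ± 7.76 CPM in ciliated mutants and 22.7 ± 6.90 in controls (0.18, edgeR adjusted p = 0.559), and -0.26 (edgeR adjusted p = 0.387) without cilia. Lrfn4, the most abundant, had 203 ± 36.3 and 192 ± 56.4 CPM (0.08, edgeR adjusted p = 0.841), and 0.30 (edgeR adjusted p = 0.0897) without cilia. Lrfn2 and Lrfn5 had no count in any of the 52 libraries. Samd4b, on the other strand, was at 122 ± 12.9 and 128 ± 17.3 CPM with cilia and had log2 fold changes of -0.07 and 0.10 in the 2 states. The strand setting of the counting is not given in the sources used here, so reads of overlapping genes cannot be told apart outside their exons.

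For Lypd6b, 27 of 28 listed Ly6/uPAR family genes were in the files and 8 with cilia and 7 without were tested, of which edgeR called 0 in either pool (3 and 1 at an unadjusted p under 0.05, beside 19.2% and 30.3% of all genes). DESeq2 called 1, Ly6a, lower in each pool (-2.22 with cilia and -1.26 without), where it called 0.527% and 2.96% of all genes lower, and voom called 0. Ly6a was named after its values were seen. The list medians were -0.27 and -0.19. The paralogue Lypd6, which lies next to Lypd6b on chromosome 2, had 1 count over all 52 libraries. Of 16 nicotinic acetylcholine receptor subunit genes, the receptors that Lypd6b acts on, 2 were tested in either pool, and 0 were called by edgeR, DESeq2 or voom and 0 had an unadjusted p under 0.05. Most of the family and of the receptor was thus below the filter in these cells. In single clones edgeR called Lypd2 higher in the ciliated Wdr60 clone (4.67, adjusted p = 0.000105), where 80 of 12456 genes were. Ly6g6d was called lower in the Wdr34 clone labeled 3 (-2.13, edgeR adjusted p = 0.00208), beside 2.16% of genes. Chrnd was called higher in the non-ciliated Wdr60 clone (2.32, edgeR adjusted p = 0.0424), where 122 of 12371 genes were, and had -2.59 in the Wdr34 clone, not called.

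The genes beside each member were read to see whether a stretch of chromosome was lower. Among the 10 nearest symbols on each side of each of the 4 genes, 80 in all, 50 were tested with cilia and 49 without, and edgeR, DESeq2 and voom called 0 in either state, with 4 and 14 at an unadjusted edgeR p under 0.05, beside 19.2% and 30.3% of all genes. Of the 14 without cilia, 8 were among the 14 tested neighbors of B930041F14Rik, and these 8 had log2 fold changes in both directions, from -0.43 for Ccnl2 to 0.53 for Cfap74. The pooled log2 fold changes of all tested neighbors ran from -0.67 to 0.54, and 4 values had an edgeR adjusted p under 0.05 without reaching a change of 1. Single clones gave 0 called neighbors too, but around B930041F14Rik the ciliated clones went in different directions. In the Wdr34 clone labeled 1, 15 of 16 tested neighbors were negative (median -0.32, all genes -0.05). In the clone labeled 3 it was 3 of 16 (median 0.43, all genes -0.04), and in the Wdr60 clone 9 of 16 (median -0.02, all genes -0.03). These shifts were not tested. Beside Gatsl3, Tbc1d10a had 0.05 with cilia and -0.16 without, and the cytokine gene Lif -0.37 and 0.54. Beside B930041F14Rik, Mib2 had -0.23 and 0.04 and Ssu72 0.00 and 0.09. Beside Lypd6b, the kinesin gene Kif5c had -0.44 and 0.13.

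**Figure D4:**
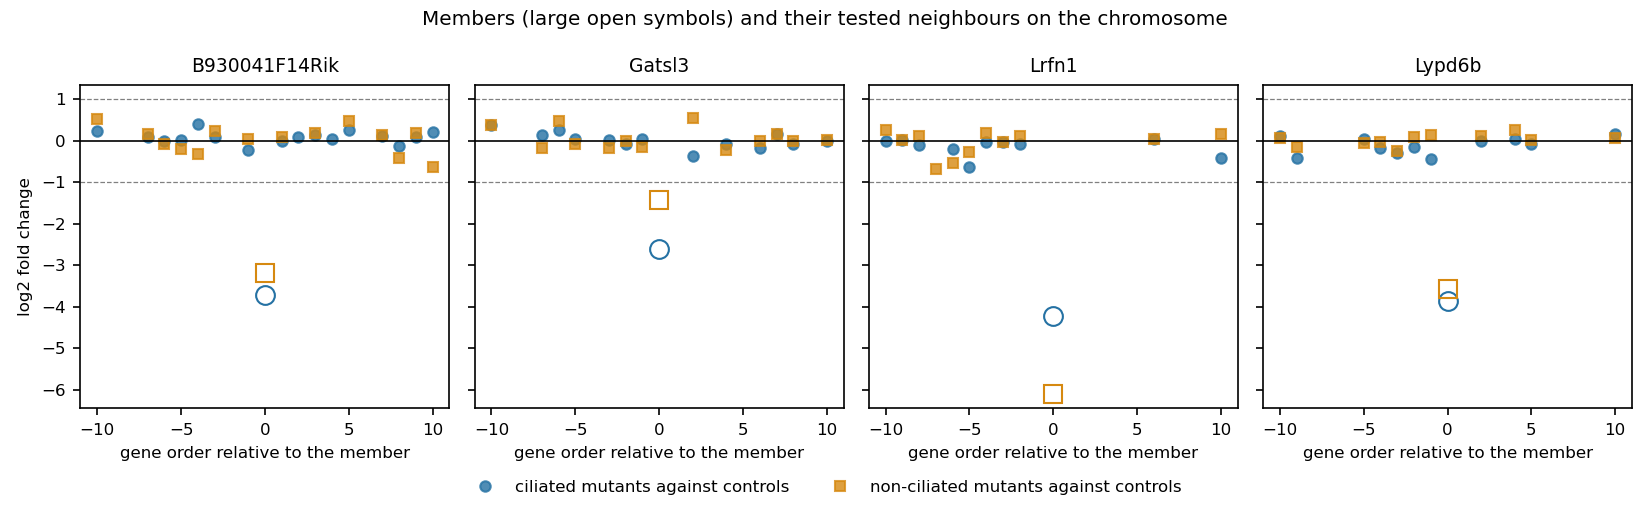
Log2 fold change of mutants against controls for the 10 genes on each side of each member by gene order, with circles for ciliated and squares for non-ciliated cells, large open symbols for the member and dashed lines at a change of 1 in either direction. Tested neighbors lie between -0.67 and 0.54, while the members lie lower.

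A RefSeq promoter (GRCm38.p6, from 250 bases before to 50 after a transcript start) was at hand for 1 of the 4 members, Gatsl3. It is printed with its GC boxes in capitals, and any part of it in the level of this gene was not tested. It lies at chr11:4217975-4218274 on the plus strand, around a start at 4218225 rather than at the outer edge of the RefSeq gene span given above, and is 65.7% G or C.
Gatsl3 promoter: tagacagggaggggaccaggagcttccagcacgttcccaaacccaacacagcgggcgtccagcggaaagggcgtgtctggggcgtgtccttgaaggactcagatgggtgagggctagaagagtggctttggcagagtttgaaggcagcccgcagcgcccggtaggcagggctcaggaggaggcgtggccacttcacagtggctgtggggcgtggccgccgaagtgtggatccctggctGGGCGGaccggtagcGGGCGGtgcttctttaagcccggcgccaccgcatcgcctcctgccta
On either strand it holds 2 matches to GGGCGG, which is found in 35.7% of 32851 promoters of this length, and 1 to GTTNCC, a short part of the box bound by RFX factors of ciliated cells, found in 45.3%. The full RFX X-box was not matched (0.0183% of promoters), nor were CCAAT (37.4%), TATAAA (13.6%), TGACGTCA (1.79%) and CACGTG (7.15%). It has 21 CG dinucleotides, and 24.8% of promoters have at least as many.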

How the data were processed

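The labels name the IMCD3 clones, genotypes and states from which each library was grouped. The deposited values are raw read counts per gene symbol, made by the authors with Rsubread's featureCounts in R 3.4.4 against mouse GRCm38, and the authors' own tests used DESeq2 1.18.1. The strand setting is not given in the sources used here. Neither the human data of the study nor its fold tables were used here.

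Counts were scaled by TMM and tested with edgeR 4.0.16 (glmQLFit and glmQLFTest, R 4.3.3, filterByExpr at defaults, no covariate) over all genes of a comparison, 2-sided, with Benjamini-Hochberg adjustment. Called genes had to change by 1 or more on the log2 scale, with the adjusted p under 0.05. Members removed by filterByExpr were taken from a fit of genes with at least 10 counts in total, a choice made after seeing the data. Ratios of summed counts and clone means without each control, and the alternatives for Elfn1 and Flrt1, were also added after seeing the data. CPM is TMM-scaled, and the 95% counting intervals of ratios come from exact binomial intervals of the mutant share of the summed counts. Clone means were compared by exact permutation of mean log2(CPM + 0.1). Scripts were tested on simulated counts. The 78 replicate pairs within clones differed more than sampling noise (chi-square per degree of freedom 1.99 to 104, median 5.47), and 0 pairs were identical.

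The members and gene lists were chosen with earlier results of these data known. Named besides the members were list genes called in a pooled comparison and the closest paralogues. List genes called in a single clone were added after seeing the data. Some tested neighbors were named too, those close to a member or at the ends of a range. Also named were the 5 genes nearest in pattern (mean of at least 0.5 CPM), and up to 5 genes just outside each limit of the choice. Single genes that fall under these rules are not reported here in a few cases. Neighbors were the 10 symbols on each side in RefSeq, to which 99.5% of symbols matched. Alternatives were DESeq2 1.42.0, RLE scaling, other filters, stricter calling, clones summed, limma 3.58.1 (voomLmFit) with the clone as a block, a replicate block, and leaving out each clone or replicate number.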

Additional observations from a re-analysis of the deposited data

Results flagged for a closer look

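Over the 4 genes, each clone's 4 libraries and each state's 4 control clones were searched for a value far from the rest, and 7 of the 56 sets with any spread held one. Chance alone gives about 1 in 20 in continuous values, a rate that does not hold where 3 of 4 libraries are at 0. In 4 of the 7 sets, 1 library of a mutant clone held all of its counts and the other 3 were at 0. These were B930041F14Rik in the non-ciliated Wdr34 clone (0.251 CPM), Gatsl3 in the ciliated Wdr34 clone labeled 3 (0.108 CPM), and Lrfn1 in the non-ciliated Wdr34 clone (0.0651 CPM) and in the ciliated Wdr34 clone labeled 1 (0.0622 CPM). The last 2 values are 1 count each.

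In controls, the lowest Lypd6b library of the ciliated clone H12 had 2.01 CPM, apart from the other 3 at 2.73 to 2.78. Among ciliated control clones, Gatsl3 was highest in G7 (0.921 CPM), against 0.640 to 0.671 in the other 3. Among non-ciliated control clones, Lypd6b was highest in control 1 (1.75 CPM), against 0.0639 to 0.236 in the other 3.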

How the results depend on the processing

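Of 208 alternative values for the 4 genes in non-ciliated cells, 170 kept their direction and their side of the threshold, 34 lost a call, 4 gained one and 0 changed sign, and they ran from -9.15 to -0.67 (log2). All values given here for Lrfn1 and B930041F14Rik in the Wdr60 clone and for Lypd6b in the Wdr34 clone come from 0 counts in the mutant, depend on the prior count of the fit, and are neither bounds nor a sign of stability. The same holds for the pooled extremes of -7.20, -6.25 and -5.61 below and for -5.59 in the Wdr34 clone. With clones summed, no call was left: pooled Gatsl3 had -1.43, Lrfn1 -6.73, Lypd6b -3.74 and B930041F14Rik -3.39, the Wdr34 clone had -2.38 for Gatsl3 and -5.86 for Lrfn1, and the Wdr60 clone -9.15 for Lrfn1 and -7.60 for B930041F14Rik. With the clone as a block in voom, calls were lost for pooled Gatsl3 (-1.75), Lypd6b (-2.10) and B930041F14Rik (-2.83), for Gatsl3 (-2.87) and Lrfn1 (-4.41) in the Wdr34 clone, and for Lrfn1 (-4.82) and B930041F14Rik (-3.19) in the Wdr60 clone. These fits rest on clones rather than libraries. At an adjusted p under 0.01, pooled Gatsl3 (-1.42) and Lypd6b (-3.57) were no longer called. DESeq2 called Lypd6b in the Wdr34 clone (-5.57, adjusted p = 0.00600), and the cause was not tested.

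Leaving out 1 clone or replicate number at a time gave pooled values of -2.34 to -0.87 for Gatsl3 (4 of 10 calls lost), -7.20 to -5.42 for Lrfn1 (0 lost), -6.25 to -1.65 for Lypd6b (7 lost) and -5.61 to -2.32 for B930041F14Rik (3 lost). The mutants held 1 count of Lrfn1, so its kept calls are no sign of stability. In the Wdr34 clone they were -3.00 to -1.99 for Gatsl3 (2 lost), -6.60 to -4.34 for Lypd6b (2 gained, without control AB or 2) and -5.59 to -1.84 for B930041F14Rik. In the Wdr60 clone they were -1.06 to -0.69 for Gatsl3 (1 gained, without control 1), -3.09 to -0.78 for Lypd6b and -5.88 to -5.28 for B930041F14Rik (1 lost). Over 4 leave-one-out runs, the exact permutation p over clone means ran from 0.1 to 0.3 for Gatsl3, 0.2 to 0.5 for Lypd6b and 0.1 to 0.2 for B930041F14Rik. For Lrfn1 it was 0.1 in each run. The number of clones limits how small this p can be, so no stability is read from it. The described ciliated values ran from -9.00 to -1.28 over 250 alternatives, and 12 moved by more than their error. The choice of genes largely fixed their sign, so nothing is read from it.

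Replicate numbers do not pair the libraries, since the mean correlation of deviations at the same number was -0.00534 (-0.351 to 0.164, 60 pairs) without cilia and 0.0276 (-0.213 to 0.571, 84 pairs) with cilia. With a replicate block, the pooled non-ciliated values were -1.42 for Gatsl3, -6.10 for Lrfn1, -3.57 for Lypd6b and -3.32 for B930041F14Rik, and no call of these genes changed. Counts of genes called over all alternatives ran from 0 to 855 higher and 0 to 948 lower without cilia (59 and 309 in the reported fit) and from 0 to 230 and 0 to 197 with cilia (50 and 27). With clones summed they were 0 in each, with 582 and 148 genes at an unadjusted p under 0.05. With at most 6 counts in any mutant library of Lrfn1, Lypd6b and B930041F14Rik, depth limits how far below the controls a mutant level can be placed.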
